A study of Drosophila melanogaster with 47 samples.

Results

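The Enhancer of split complex is a cluster of Notch-responsive genes on the right arm of chromosome 3 (3R) of Drosophila melanogaster. It was taken here as the interval on 3R from 21820000 to 21880000 (build dm3, here and throughout), a length of 60 kb. Every peak that overlapped the interval by at least 1 bp was a member, which gave 44 of the 12745 peaks of the series and 44 of the 2888 on arm 3R. The interval was set by position alone. The 44 peaks came from 10 of the 16 deposited lists and from 9 of the 14 regulators.

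The peaks were called from chromatin immunoprecipitation with sequencing (ChIP-seq), which recovers the DNA that a protein is bound to with an antibody. The 47 samples were 35 immunoprecipitated samples and 12 inputs of unenriched chromatin, with 3 replicates each for Su(H), insv and h, 2 for the other 13 groups, and 1 list per group. Larvae (stage label W3L) with the source labels Notch-GFP, AbdB-GFP, Hr78-GFP and LolaI-GFP were used for Notch, AbdB, Hr78 and Lola with an anti-GFP antibody. Embryos labelled Hr78-GFP (8 to 16 h) and Stat92E-GFP (0 to 12 h) were also precipitated with anti-GFP. For Cmi the embryos (0 to 8 h) carry the source label Exd-GFP, and the antibody was one against Cmi itself. Antibodies to the regulators themselves were further used for br in embryos of 0 to 8 h, for prd in embryos of 0 to 12 h (antibodies RF12 and RF13) and for cnc in adult females. They were also used for Su(H), insv, h and dm in Kc167 cells and for CG8478 in S2 cells, both established lines of embryonic origin. The labels name neither a promoter for the tagged proteins nor the tissues of the animals, and they do not say whether replicates came from separate cultures or animals. No value per replicate and no read depth was given, so intervals on shares cover counting error only, and the lengths of the lists were not compared.

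In Notch signalling, the cleaved intracellular part of the Notch receptor enters the nucleus and joins the DNA-binding protein Su(H) at target genes. Without the signal, Su(H) acts with corepressors at such sites. The complex is the classic target locus. Its basic helix-loop-helix (bHLH) proteins are repressors that restrain neural fate, its Bearded family proteins inhibit the ubiquitin ligase Neuralized, and gro encodes the corepressor Groucho, which the bHLH proteins recruit. A gene table of a later assembly held all 13 names looked for, with no other protein-coding gene between them. Their order there was E(spl)mdelta-HLH, E(spl)mgamma-HLH, E(spl)mbeta-HLH, E(spl)malpha-BFM, Kaz-m1, E(spl)m2-BFM, E(spl)m3-HLH, E(spl)m4-BFM, E(spl)m5-HLH, E(spl)m6-BFM, E(spl)m7-HLH, E(spl)m8-HLH and gro. This makes 7 bHLH genes and 4 of the Bearded family. The positions of that table were not carried over to dm3, so peaks are placed below by position and not by gene.

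Binding in the interval was dense, and Cmi had the most peaks of any list. The 44 peaks amounted to 73.3 peaks per 100 kb, against 10.2 on the rest of 3R, a 7.18-fold density. Among 463 windows of the same length laid over the rest of 3R, 81.6% held at least 1 peak of any list and the median was 4 peaks. A single window, 0.216% of them, held 44 or more, with 56 peaks at 12039837 to 12099837. This count rests on where the windows start: with windows shifted by 50% of their length, 3 held 44 or more. With 9 regulators the interval also lay above the median of 3 regulators per window, and 14 windows (3.02%) held 9 or more. With each list counted once, the log2 ratio of observed to expected peaks, after adding 0.5 to both, averaged 1.11 ± 1.29 (SD, n = 16 lists). It was above 0 in 10 lists and below 0 in 6 (exact sign-flip permutation test over the lists, two-sided, p = 0.00351). A list without a peak falls below 0 by construction, and all lists share the 1 interval, so this p says nothing about other loci. Without the 16 Cmi peaks, 28 peaks remained at a 5.27-fold density.

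**Figure D1:**
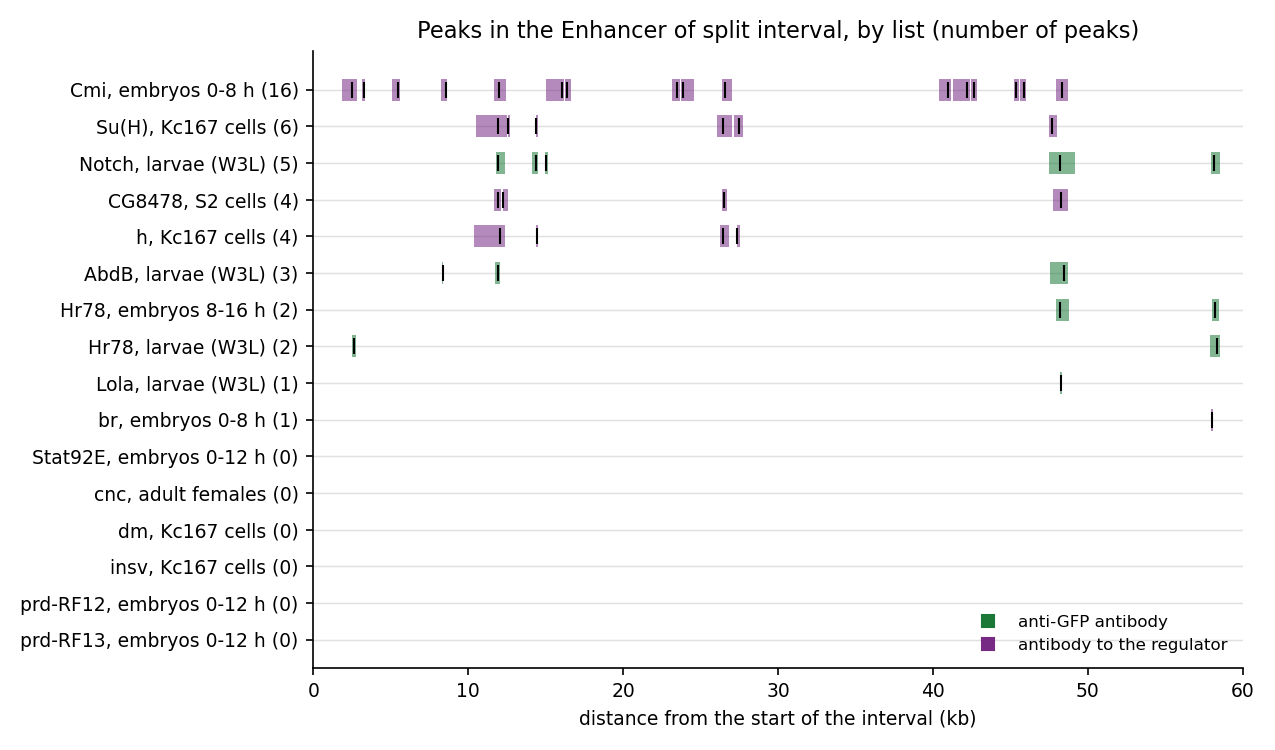
Peaks of the 16 lists in the interval, as boxes along the distance from its start in kb, with the summit of each as a black tick and the number of peaks in brackets. Cmi has 16 peaks from 2.52 to 48.3 kb, while the peaks of several regulators stack near 12 kb, 26 kb and 48 kb. Green marks anti-GFP lists and purple antibodies to the regulators themselves.

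The coactivator subunit Cmi (Cara Mitad), part of a histone methyltransferase complex, had the most peaks in the interval. Its 16 peaks were 4.05% of its 395 peaks on 3R (95% Clopper-Pearson interval 2.33 to 6.49), where the interval is 0.215% of the arm. They stood at 26.7 per 100 kb, against 1.36 on the rest of the arm, a 19.6-fold density. While 36.9% of the windows held at least 1 Cmi peak, 0 of 463 held 16, and the highest count was 12. The 16 peaks covered 16.9% of the bases of the interval, against 0.705% on the rest of 3R. Neighbouring summits lay 343 to 14388 bp apart with a median of 2435 bp, against a median of 14432.5 bp on the rest of the arm. The peaks were also wider, with a median of 595 bp in the interval and 391 bp elsewhere on 3R.

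The Cmi peaks ranged from among the strongest to among the weakest of their list. Strength is given here as the percentile of the authors' −log10 p within a list, with 100 the strongest, beside the authors' fold enrichment over background. Of the 16 peaks, 10 stood above the median of the 1685 Cmi peaks and 4 above the 80th percentile. The strongest, at 21821841 to 21822834, ranked 156 with a fold of 4.19 (percentile 90.8), and the weakest of the interval stood at percentile 1.63. Other regulators overlapped 6 of the 16 peaks (37.5%, 15.2 to 64.6), against 52.8% of the 379 Cmi peaks on the rest of 3R (47.6 to 57.9), so the intervals overlap. The 10 peaks without another regulator had a median percentile of 56.6 and the 6 others 67.5. A run of 5 such peaks, singled out after the values were seen, filled a stretch of 5606 bp from 21860395 to 21866000. No other list had a peak there, the nearest summit of another regulator was 1787 to 6698 bp away, and the 5 peaks reached percentiles of 1.63 to 89.9 and folds of 2.96 to 4.22.

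**Figure D2:**
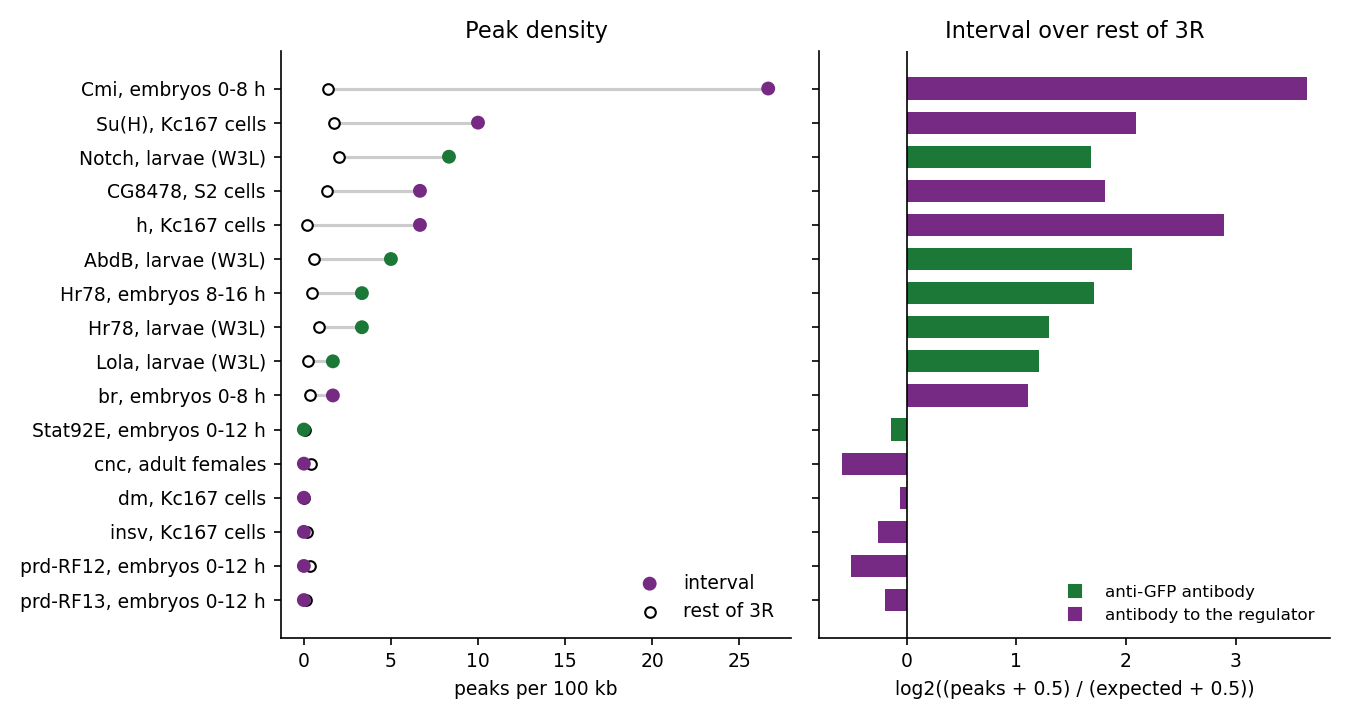
Left, peaks per 100 kb in the interval (filled) and on the rest of 3R (open) for each list; right, log2 of observed over expected peaks with 0.5 added to both. The Cmi density of 26.7 is the highest, and the 6 lists at 0 peaks have bars left of 0; colours give the antibody class.

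**Figure D3:**
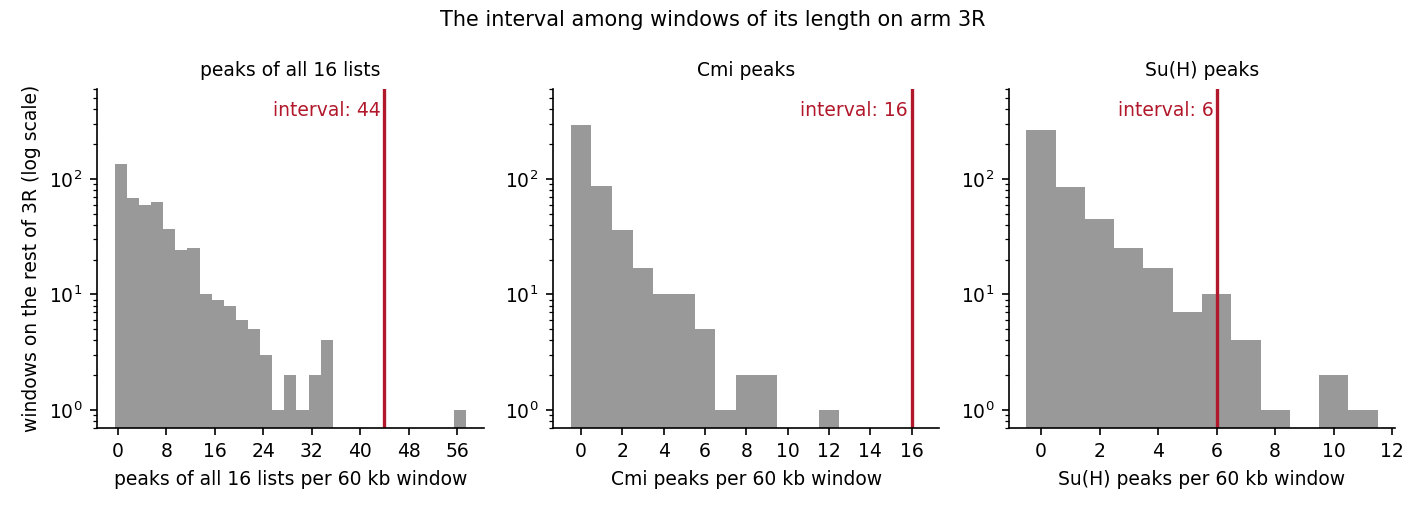
Number of windows on the rest of 3R (grey, logarithmic vertical axis) by their count of all peaks, of Cmi peaks and of Su(H) peaks per 60 kb window, with the interval as a red line. The interval lies above every window for Cmi (16 against at most 12) and within the range of windows for Su(H) (6 against at most 11).

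Su(H), the DNA-binding protein of the pathway, had 6 peaks in Kc167 cells. They were 1.25% of its 480 peaks on 3R (0.460 to 2.70), a 5.87-fold density over the rest of the arm (6 peaks, where 1.02 were expected). At least 1 Su(H) peak was found in 42.5% of the windows, and 6 or more in 3.89%. The strongest of the 6 was also one of the widest peaks of the interval, 1984 bp at 21830511 to 21832494, with a fold of 2.69 and percentile 80.1. Percentiles of 74.8 and 63.9 followed at 27.5 and 26.4 kb from the start of the interval. The other 3 peaks stood at percentiles of 44.9, 27.5 and 7.09, the last at 47.7 kb. All 6 overlapped another regulator (54.1 to 100%), against 53.6% of the 474 Su(H) peaks on the rest of 3R (49.0 to 58.1). The higher density of peaks in the interval alone raises such shares of overlap, here and in the comparisons below.

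Notch had 5 peaks in larvae. They made up 0.879% of its 569 peaks on 3R (0.286 to 2.04), with a density of 8.33 per 100 kb in the interval and 2.03 elsewhere, 4.11-fold. Most windows, 60.7%, held a Notch peak, and 3.46% held 5 or more. One Notch peak was strong, at 21867497 to 21869159, with a fold of 4.22, rank 231 of 2516 and percentile 90.9. The other 4 stood below the median of the list, at percentiles of 17.3 to 44.0. Su(H) overlapped 3 of the 5 Notch peaks (95% interval 14.7 to 94.7%), against 18.4% of the 564 on the rest of 3R (15.3 to 21.9). These intervals overlap. Cmi also overlapped 3 of the 5, against 20.04% elsewhere. The h list overlapped 2 (5.27 to 85.3%), against 1.95% (0.978 to 3.46). AbdB, CG8478 and embryonic Hr78 overlapped 2 each, against 25.9%, 25% and 17.7%. Lola and br overlapped 1 each, against 6.38% and 3.37%, and larval Hr78 1, against a higher 35.3%. The remaining lists overlapped 0, against 4.08% or less. Summits of Notch and Su(H) lay 10 bp apart at 14.4 kb and 12 bp apart at 12.0 kb, while at 48 kb they were 553 bp apart.

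Of the repressors profiled in Kc167 cells, h had peaks in the interval and insv had none. The pair-rule repressor h, itself a bHLH relative of the proteins the complex encodes and a partner of Groucho, had 4 of its 53 peaks on 3R there (7.55%, 2.09 to 18.2). Its density was 6.67 per 100 kb in the interval and 0.176 elsewhere, 37.9-fold. An h peak was found in 8.21% of the windows, and 4 in 1 window (0.216%). All 4 h peaks overlapped Su(H) (39.8 to 100%), against 34.7% of the 49 on the rest of the arm (21.7 to 49.6), with summits 33, 63, 98 and 127 bp away. In the other direction, 4 of the 6 Su(H) peaks overlapped h (66.7%, 22.3 to 95.7), against 3.38% of 474 elsewhere (1.94 to 5.42). Both lists were denser in the interval, and their median widths were larger there. These were 396.5 against 179 bp for h and 547 against 286.5 bp for Su(H). Single widths in the interval varied, from 153 to 1995 bp for h and from 124 to 1984 bp for Su(H). Density and width alone raise such shares, and their part was not tested. The strongest h peak, at 21834382 to 21834534, had a fold of 2.43 and ranked 63 of 216. A single input is labelled for the Kc167 lists, and its part in the overlap of h with Su(H) was not tested. The corepressor insv, known to act with Su(H), had 0 of its 47 peaks on 3R in the interval, so its share may be as high as 6.38% (the limit that 3 counts give), and 8.64% of the windows held an insv peak.

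The other regulators with peaks in the interval had between 1 and 4 each. The uncharacterised protein CG8478 had 4 peaks in S2 cells at a 5.11-fold density. At least 1 CG8478 peak was found in 37.1% of windows and 4 or more in 5.4%. All 4 overlapped Su(H) and Cmi (39.8 to 100% for each). On the rest of the arm 32.8% of 363 CG8478 peaks overlapped Su(H) (28.0 to 37.9) and 24.5% overlapped Cmi (20.2 to 29.3). In the other direction, CG8478 overlapped 3 of the 16 Cmi peaks (4.05 to 45.6%), against 22.7% elsewhere. It overlapped 4 of the 6 Su(H) peaks (22.3 to 95.7%), against 27.8% elsewhere (23.9 to 32.1). Its strongest peak, at 21867726 to 21868749, had a fold of 2.90 and percentile 76.4. The Hox protein AbdB had 3 peaks in larvae at an 8.70-fold density, where 26.8% of windows held 1 or more and 1.08% held 3 or more. The strongest AbdB peak lay at 21867528 to 21868718 with percentile 61.1, and the other 2 peaks stood at 24.0 and 19.3. All 3 AbdB peaks overlapped Cmi (29.2 to 100%), against 25.0% of 160 elsewhere on 3R (18.5 to 32.4), so the intervals overlap. Other partners went both ways. CG8478 and Su(H) each overlapped 2 of the 3 AbdB peaks, against 35.6% and 25.0% elsewhere. Embryonic Hr78, Lola and h each overlapped 1, against 28.1%, 11.25% and 2.5%. Shares were lower for Notch, with 2 of the 3 (9.43 to 99.2%), against 92.5% elsewhere (87.3 to 96.1). Larval Hr78 overlapped 0 (0 to 70.8%), against 62.5% (54.5 to 70.0), and the intervals overlap for both. The remaining lists overlapped 0, against 7.5% or less elsewhere.

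The nuclear receptor Hr78 had 2 peaks at each stage. The density was 7.54-fold that of the rest of 3R in embryos of 8 to 16 h, where 19.9% of windows held a peak and 4.54% held 2 or more. In larvae it was 3.88-fold, with 33.3% and 12.3% of windows. Both larval peaks lay near an end of the interval, and the larval log2 ratio of 1.30 turned to −0.76 with the interval shortened by 10 kb on each side. Both lists had a peak at 58 kb, at 21878011 to 21878492 in embryos (percentile 52.8) and at 21877910 to 21878512 in larvae (percentile 53.9), with summits 111 bp apart. The second peak lay elsewhere at each stage, at 48.2 kb in embryos and at 2.63 kb in larvae. The zinc finger protein Lola had 1 weak peak in larvae, at 21868189 to 21868316 (percentile 10.9; 12.7% of windows with a Lola peak). The ecdysone-responsive protein br had 1 weak peak in embryos, at 21877944 to 21878094 (percentile 9.71; 14% of windows). For the Hr78, Lola and br lists the 95% interval of the share of 3R peaks included the 0.215% that the length of the interval gives. It lay above that share for Cmi, h, Su(H), AbdB, CG8478 and Notch. These intervals take peaks as independent, while peaks of 1 list can lie side by side, as for CG8478 and Su(H) at 21830381 to 21832673. They therefore give no verdict on a list. The share of windows with as many peaks or more was 5.4% for CG8478, 3.89% for Su(H) and 3.46% for Notch. It was 1.08% for AbdB, 0.216% for h and 0% for Cmi.

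Besides insv, 5 lists had no peak in the interval. These were Stat92E of the JAK-STAT pathway in embryos, the stress regulator cnc in adult females, the Myc protein dm in Kc167 cells, and the pair-rule protein prd with either antibody in embryos. They held 10 to 117 peaks on 3R, so that 0 peaks allow shares of up to 12.0% for Stat92E, 2.56% for cnc, 30.0% for dm, 3.03% for RF12 and 8.82% for RF13. Peaks of these lists were found in 4.54%, 19.2%, 1.73%, 17.7% and 6.48% of the windows, in the same order. At most 0.252 peaks were expected in the interval from the rest of the arm for any of them, so a lower density was not detectable at these list lengths.

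**Figure D4:**
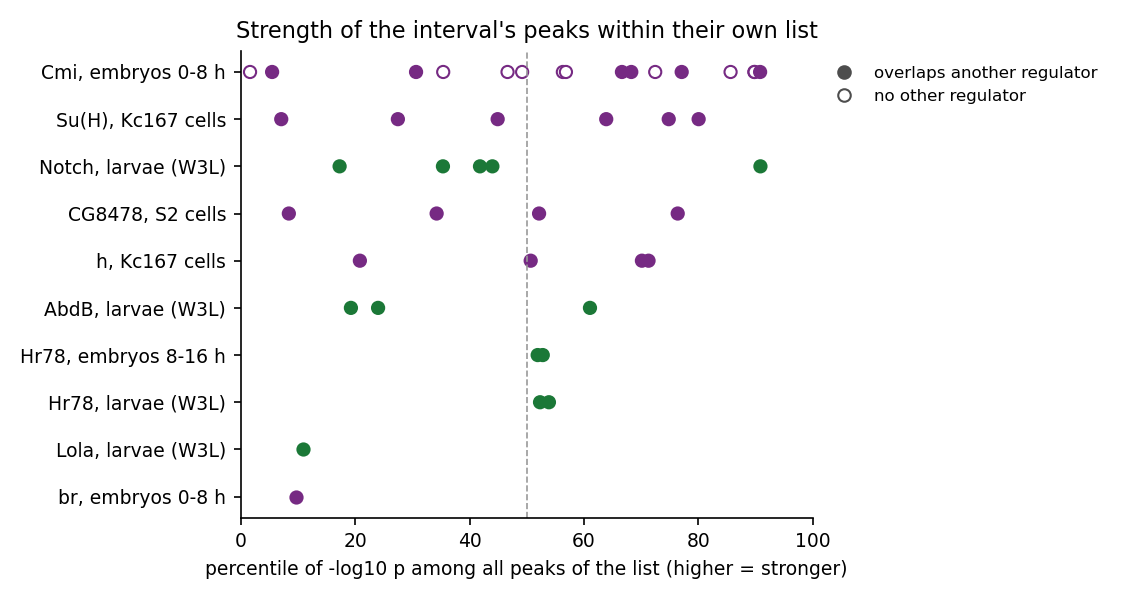
Percentile of the authors' −log10 p of each peak of the interval within its own list, for the 10 lists with a peak; filled circles overlap another regulator, open circles do not, and the dashed line is the middle of the list. Of the 44 peaks 24 lie above the middle, only Cmi has open circles, and the highest are 1 Notch peak at 90.9 and 1 Cmi peak at 90.8.

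By −log10 p the members were near the middle of their lists. Their median percentile was 52.0, with a range from 1.63 to 90.9, and 24 of 44 stood above the median of their list. By fold, the median in the interval was above that of the list only for Cmi (3.37 against 3.29) and larval Hr78 (2.92 against 2.87). It was lower for the other lists with a peak, such as Notch (2.76 against 3.03) and h (2.18 against 2.31). The median width of the members was 490 bp, with 319 bp for the 2844 peaks on the rest of 3R. Width alone raises the chance of an overlap. Of the 44 peaks, 34 overlapped another regulator (77.3%), and all 10 that did not were Cmi peaks. The share on the rest of 3R was 64.5%. The summit of the nearest other regulator was a median of 109 bp away and within 250 bp for 30 of the 44.

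Merging overlapping peaks gave 19 regions that covered 24.3% of the interval, against 1523 regions and 2.58% on the rest of 3R. In the interval 10 regions held 1 regulator, 4 held 2 and 5 held 3 or more. Regions with 3 or more regulators were 26.3% (9.15 to 51.2) in the interval and 18.8% (16.9 to 20.9) elsewhere on the arm, and those with 5 or more were 10.5% (1.30 to 33.1) and 4.92% (3.89 to 6.13). The intervals overlap for both, so joint binding per region was not detectably more frequent at this number of regions. The density of regions was 31.7 per 100 kb in the interval and 5.47 elsewhere. Without the Notch list 3 regions held 3 or more regulators.

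**Figure D5:**
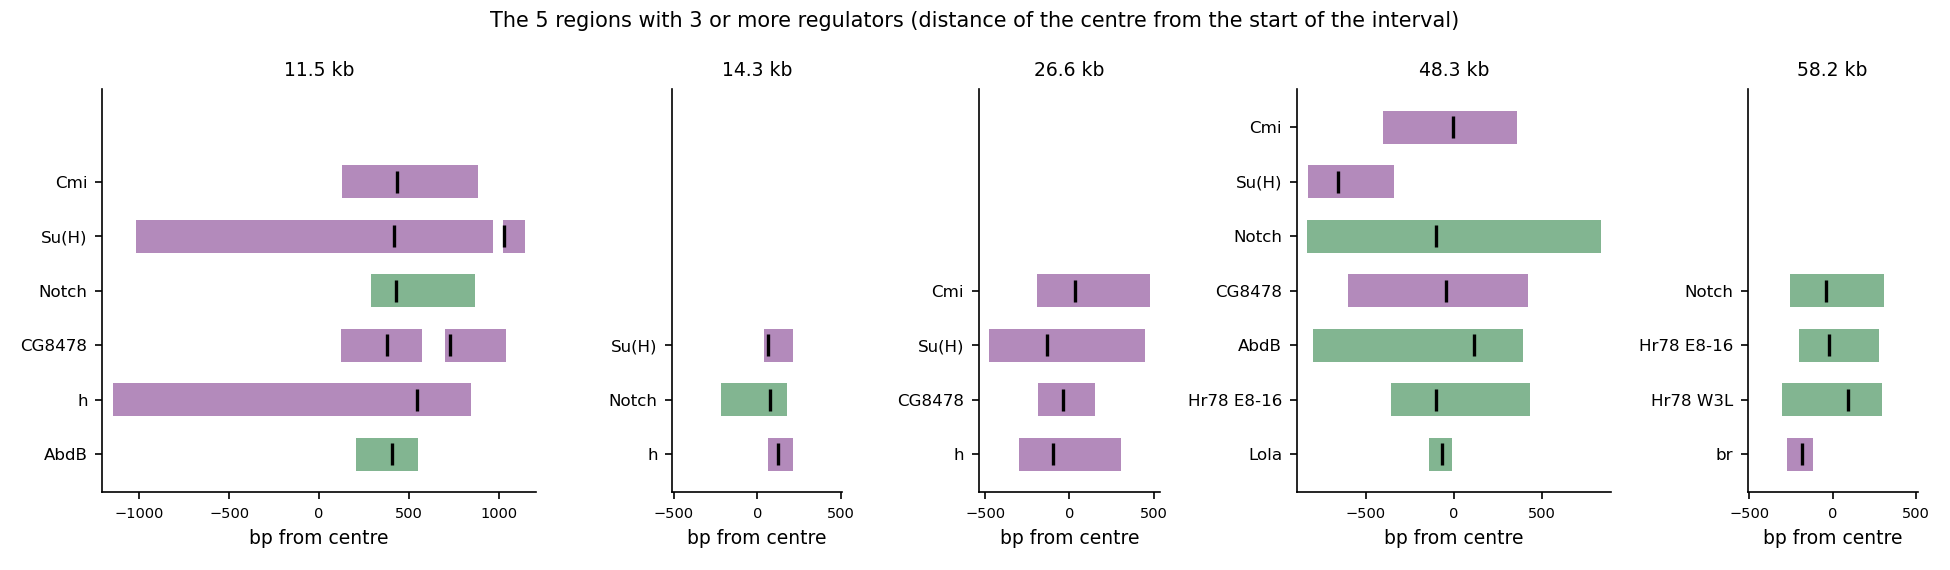
The 5 regions with 3 or more regulators, each by distance in bp from its centre, with peaks as boxes and summits as black ticks; panel titles give the distance of the centre from the start of the interval. Summits of 5 regulators fall within 53 bp at 11.5 kb, and at 48.3 kb the Su(H) summit stands apart at the left. Green marks anti-GFP lists, purple antibodies to the regulators themselves.

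The region with the most regulators lay at 21867497 to 21869159 and held 7: Notch, Su(H), AbdB, CG8478, Cmi, Hr78 of embryos and Lola. It drew on larvae, embryos of 2 ages and both cell lines. The strong Notch peak spanned all of it. Its summit lay 1 bp from that of embryonic Hr78, 33 bp from Lola, 58 bp from CG8478, 95 bp from Cmi and 215 bp from AbdB. Notch, AbdB, Hr78 and Lola are anti-GFP lists, which often met Notch elsewhere too. On the rest of 3R, 92.5% of AbdB, 84.6% of embryonic Hr78 and 52.2% of Lola peaks overlapped Notch. For CG8478, Cmi and Su(H) these shares were 42.4%, 30.6% and 25.1%. The weak Su(H) peak (fold 1.92, percentile 7.09) overlapped the Notch peak over 491 bp but had its summit 553 bp away, and it did not overlap the Lola peak. On the rest of 3R, 12 of 1523 regions held 7 or more regulators (0.788%).

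The region at 21830381 to 21832673 was the widest, with 2293 bp and 8 peaks of 6 regulators. The wide Su(H) and h peaks spanned most of it, and the Cmi, AbdB and Notch peaks and 1 of 2 CG8478 peaks lay within the Su(H) peak. Summits of Su(H), Notch, Cmi, AbdB and the first CG8478 peak fell within 53 bp of one another, with 5 bp between Cmi and Notch, 12 bp between Su(H) and Notch and 13 bp between Su(H) and AbdB. The h summit stood 110 to 163 bp from these 5. A second CG8478 peak and a short second Su(H) peak lay towards the end of the region, with summits 299 bp apart. Although the summits were close, the AbdB and Notch peaks here were weak within their lists, at percentiles of 19.3 and 35.4, while Su(H) and Cmi stood at 80.1 and 77.1.

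The other 3 regions were smaller. At 21834103 to 21834534 Notch, Su(H) and h had summits within 63 bp, at percentiles of 41.8, 44.9 and 71.3, and Cmi was not called. At 21846074 to 21847033 Su(H), h, CG8478 and Cmi had summits within 167 bp, at percentiles of 63.9, 70.1, 8.41 and 66.6, and Notch was not called. The 2 summits from Kc167 cells, of Su(H) and h, were 33 bp apart there. At 21877910 to 21878520, near the end of the interval, both Hr78 lists, Notch and br met without Su(H), h, Cmi or CG8478, and the summits of Notch and embryonic Hr78 were 20 bp apart. Elsewhere on 3R, Notch overlapped 84.6% of embryonic Hr78, 88.7% of larval Hr78 and 21.7% of br peaks.

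Peaks were not spread evenly over the interval. The first 20 kb held 20 peaks in 8 regions, the middle 20 kb held 8 peaks in 4 regions, and the last 20 kb held 16 peaks in 7 regions. No Notch, AbdB, Hr78, Lola or br summit fell in the middle 20 kb, where Cmi had 3, Su(H) and h 2 each and CG8478 1. All h summits lay in the first 40 kb. The longest stretches without any peak were 12.7 kb (21847735 to 21860394), 8.75 kb (21869160 to 21877909) and 6.57 kb (21836623 to 21843188). Outside the interval, the nearest peaks were both Notch peaks, 12.5 kb before the first member and 46.3 kb after the last. The window before the interval held 1 peak and the window after it 12, neither of them with a Cmi, Su(H) or h peak.

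By material, the 6 embryo lists gave 19 of the 44 peaks, and 752 of the 2844 on the rest of 3R, an 11.7-fold density. The 4 larval lists gave 11 peaks in the interval and 1032 on the rest of the arm (4.94-fold), the 4 Kc167 lists 10 and 580 (8.00-fold), the S2 list 4 and 363 (5.11-fold) and the adult list 0 and 117. All 4 larval lists had a peak, while 3 of the 6 embryo lists and 2 of the 4 Kc167 lists did. Within the embryo lists, those of 0 to 8 h had 17 peaks, 16 of Cmi and 1 of br, that of 8 to 16 h had 2 and the 3 of 0 to 12 h had 0. Apart from Hr78, which has the same source label and antibody in embryos and larvae, each material holds other regulators, which cannot be told apart from the material. All 4 larval lists and no Kc167, S2 or adult list were made with anti-GFP. The antibody class therefore cannot be told apart from the material. Lists made with anti-GFP had a mean log2 ratio of 1.30 ± 0.77 (SD, n = 6), and those made with antibodies to the regulators had 0.99 ± 1.54 (SD, n = 10). The difference of 0.31 did not pass (exact permutation of the labels over the lists, two-sided, p = 0.647, adjusted 0.925 over 2 tests), and it turned to −0.11 when the interval was shortened by 10 kb on each side.

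The 3 lists of the Notch pathway, Su(H), Notch and insv, were not shown to differ in density from the other 13. Their mean log2 ratio was 1.17 ± 1.26 (SD, n = 3), against 1.09 ± 1.34 (SD, n = 13) for the others. The difference of 0.08 did not pass (exact permutation test, two-sided, p = 0.925, adjusted 0.925; the smallest p of this design is 0.00179). It turned below 0 under 9 of 25 alternatives, to −0.14 with the top-scoring 50% of each list and to −0.39 without the Su(H) list. Without the insv list it was 0.79 (exact permutation test, p = 0.390). With 0 peaks in the interval and 0.101 expected, the insv ratio of −0.27 is set by the added 0.5. Cmi and h, which were not counted among the pathway lists, had the highest log2 ratios of all, 3.65 and 2.89, and Su(H) followed with 2.09. This order rests on the added 0.5. By fold density without it, h came first (37.9), then Cmi (19.6), AbdB (8.70), embryonic Hr78 (7.54), Lola (6.72) and Su(H) (5.87).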

How the data were processed

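The 16 deposited peak lists were analysed. Build dm3 and the tools MACS2, BWA and CASAVA 1.7.0 are listed in the submitters' processing notes. The titles tie each input to a regulator, a cell line or a stage. Whether the peak caller used these inputs, and whether replicates were pooled, is not given in the sources used here. For each peak the deposited files hold the authors' linear fold (ratio) over background, a −log10 p deposited by the authors and, as a deposited score, 10 times that value cut to a whole number. They also hold the summit's offset, and −1 in place of a q value. Columns were read by their order, as files of this kind have no header. Fold and −log10 p were used only within a list.

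Positions were written 1-based. Arm 3R was taken from its outermost peaks, 41 to 27894054. Expected peaks came from a list's density on the rest of 3R, and 0.5 was added before log2. Windows of 60 kb were laid outward from the interval. Peaks were merged at 1 bp overlap, with the lists of 1 regulator counted once. Shares have 95% Clopper-Pearson intervals, and the upper limit for 0 peaks was set at 3 counts. The ratios of the 16 lists were tested by sign flips (65536 arrangements) and by permuting labels (8008 and 560), with Benjamini-Hochberg adjustment over the 2 label tests. Read depth per sample is unknown, which leaves the precision behind each list unknown.

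The interval, the lists compared and the tests were chosen with earlier results of these data known. Since the interval held over 40 peaks, coordinates are given for regions with 3 or more regulators and for the strongest peak of each list. The planned search of sequence words was not run, since no genome or promoter table was used here. Alternatives were other interval bounds, summits in place of peaks, the top-scoring 50%, averaged lists, an added count of 1, covered bases, all arms as background, other overlap rules and each list left out. Windows by summit or of the top-scoring 50%, windows on the other arms, and density differences were chosen after seeing the data. Calculations ran under scipy 1.17.1, numpy 2.4.6, matplotlib 3.10.9, pandas 2.3.3 and Python 3.11.15.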

Additional observations from a re-analysis of the deposited data

How the results depend on the processing

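The mean log2 density ratio stayed above 0 with p under 0.05 under all 25 alternatives run (exact permutation tests, p from 0.00195 to 0.0172), at 0.94 to 1.22 with each list left out, and the difference of densities was 3.94 peaks per 100 kb. The antibody difference turned to −0.11 with the interval shortened by 10 kb on each side and to −1.66 peaks per 100 kb as a difference of densities; with each list left out it was 0.13 to 0.60. The Notch pathway difference turned to −0.14 with the top-scoring 50% of each list and to −0.018 with the lists of 1 regulator averaged, and lay between −0.39 (without Su(H)) and 0.79 (without insv) with each list left out. None of these differences passed the test, and the cause of the turns was not tested. With the top-scoring 50%, which leaves fewer peaks, 3 regions held 3 or more regulators in place of 5, and 13 peaks were joined in place of 34; with each list left out these counts were 3 to 5 and 25 to 34. With windows shifted by 50% of their length, 3 windows in place of 1 held as many peaks as the interval, and none held 16 Cmi peaks. Of 70 values of single lists under alternatives, 68 stayed within the counting error. The others were h, at 4.73 with covered bases in place of peaks, and larval Hr78, at −0.76 with the interval shortened by 10 kb, where no peak of it was left. Within the counting error, br turned from 1.10 to −0.34 with the shortened interval and to −0.26 with the top-scoring 50%. Lola turned from 1.21 to −0.21 with the top-scoring 50%. No paired analysis was possible because the lists hold no value per replicate, and for the same reason no replicate could be left out. Short lists limit what 0 peaks can show, and unknown depth limits every comparison between lists.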

Other observations

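On the other arms, 1530 windows of the same length were laid. Of these, 0 held 16 or more Cmi peaks, with a highest count of 12, while 4 held 44 or more peaks of all lists, 56 held 6 or more Su(H) peaks, 71 held 5 or more Notch peaks and 3 held 4 or more h peaks.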
